A study of Sargassum vulgare with 6 samples.

Results

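Among the transcripts of Sargassum vulgare, a brown macroalga, 52 stood far higher in algae from a control site than in algae from a vent site, where natural carbon dioxide acidifies the water. They are 52 of 5399 detected transcripts and of 67131 listed ones. The members were chosen by their FPKM in the same 6 libraries that are described here. FPKM counts the fragments assigned to a transcript in proportion to its length and to all fragments mapped in that library. A transcript counted as detected at 1 FPKM or more in at least 3 of the 6 libraries. A detected transcript was kept when its lowest control value was at least 1 FPKM and at least 3 times its highest acidified value, a value of 0 at the acidified site being allowed. A component is a set of assembled sequences that the assembler takes as forms of 1 gene, read here from the transcript names. Transcripts of components with 3 or more detected forms were left out, which removed 4 that met the other criteria. The 52 members came from 52 different components.

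All libraries were made from apical tissue of field-grown thalli cleaned of visible epiphytes, with a stranded kit for total RNA and an input of 2.5 μg. The control site lay off Lacco Ameno and the acidified site off Castello Aragonese, both on the coast of Ischia, Italy. There were 3 libraries per site, each from a pool of 3 thalli, so the spread between libraries is that between pools. Age, season and collection date are not given in the labels used here. Each condition is 1 location, so acidity and every other difference between the locations cannot be told apart. In pools of whole tissue, fewer cells holding a transcript and less of its RNA per cell cannot be told apart either.

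Brown algae such as Sargassum form canopies on shallow rocky shores, and their growing tips hold the meristem that adds new tissue to the thallus. Gas from volcanic vents raises dissolved carbon dioxide and bicarbonate and lowers pH, which bears on photosynthetic carbon uptake and on the cost of keeping a steady pH within cells. The tables pair no transcript with a gene name, a function or a sequence, and they do not say whether a transcript came from the nucleus, from a plastid or mitochondrion, or from organisms living on the thallus. The members are therefore described by rank, from 1 for the highest mean FPKM at the control site to 52 for the lowest, and the 2 highest also by their identifiers. Tissue markers could not be checked, for the same reason.

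The summed FPKM of a library ranged from 750020 to 1048696, and the number of reads behind it is not known, so no counting interval is given. Within each library the values under 10 FPKM were whole multiples of a step of 0.00886 to 0.0116 FPKM, which is the finest difference the tables can show. An exact 0 is an estimate rounded to that step and is no proof of absence.

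At the control site the members spanned mean levels from 1.29 to 6353 FPKM, with a median of 3.31 and quartiles of 2.03 and 7.36. At the acidified site their means ran from 0 to 89.0 FPKM, with a median of 0.159. Most of the members were thus low even where they were high: 41 of the 52 had a control mean under 10 FPKM (78.8%), as did 74.4% of all detected transcripts. Because the rule requires it, all 3 control values lay above all 3 acidified values in every member, a pattern seen in 14.2% of detected transcripts. Without the limit on component size the 3-fold rule itself was met by 1.04% of detected transcripts. The mirrored rule, with the acidified site higher, was met by 2.13% of detected transcripts and kept 104 after the limit on component size. Those 104 had a median acidified mean of 4.96 FPKM and a maximum of 6617 FPKM.

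**Figure D1:**
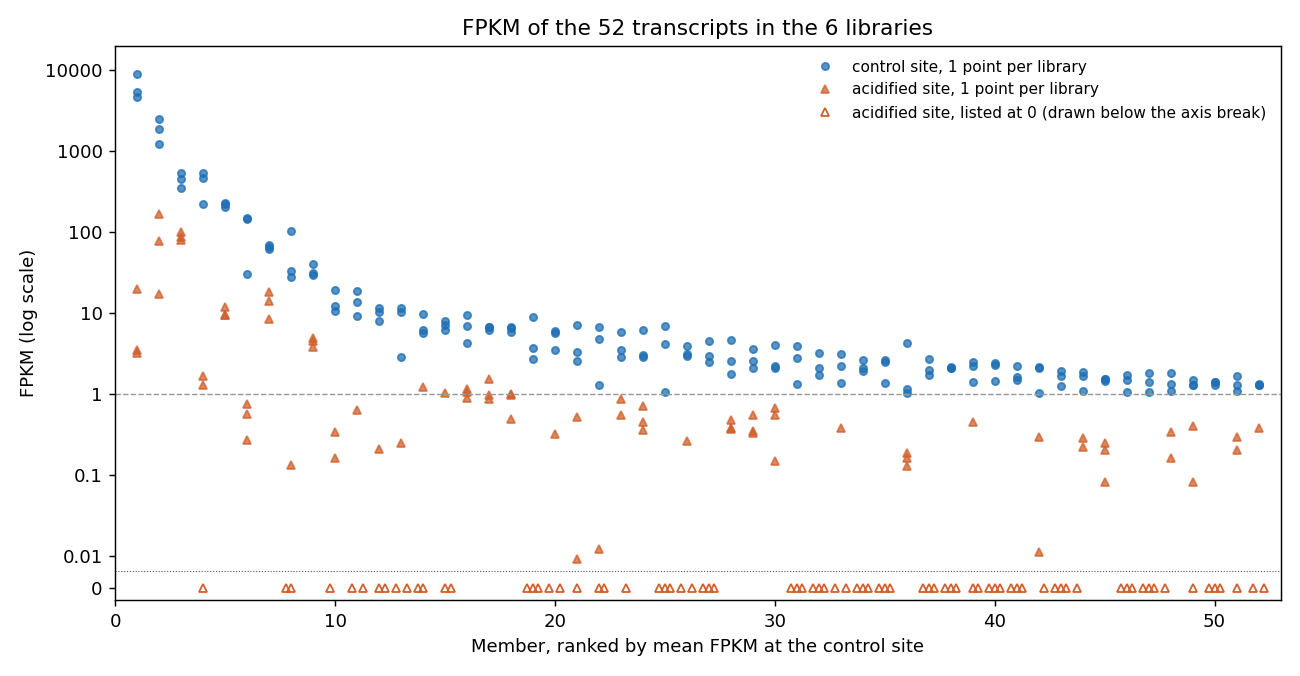
FPKM of each of the 52 members (ranked by control mean on the horizontal axis) in the 6 libraries, on a log scale, with 1 circle per control library and 1 triangle per acidified library. Open triangles at the bottom are values listed at 0, and the dashed line marks 1 FPKM. Control values fall from 6353 FPKM on average at rank 1 to little above 1 FPKM at the last ranks, and 78 of the 156 acidified values are at 0.

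Together the members held 1.40%, 0.967% and 1.06% of the summed FPKM in control libraries 1, 2 and 3, a mean of 1.14% ± 0.229 (SD, n = 3). In acidified libraries 1, 2 and 3 they held 0.0156%, 0.0326% and 0.0282%, a mean of 0.0254% ± 0.00883 (SD, n = 3). Most of the control share belonged to the 2 members ranked highest, which made up 83.8% ± 4.78 of the members' summed FPKM there (SD, n = 3). The 43 members ranked 10 and lower held 0.0196% ± 0.000577 of the control libraries (SD, n = 3). For comparison, the 104 transcripts of the mirrored rule held 2.73% ± 1.41 of the acidified libraries and 0.0775% ± 0.0101 of the control libraries (SD, n = 3 each). These shares follow from the choice of the transcripts and were not tested.

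The highest member, Sample_MLA_c34559.graph_c0_seq1, is the single listed form of its component in the assembly of the control site. It stood at 9014, 4623 and 5423 FPKM in control libraries 1, 2 and 3, and the acidified libraries 1, 2 and 3 had 3.50, 3.19 and 19.8 FPKM. Ranked by site mean among all listed transcripts, it was number 15 of the control site and number 1516 of the acidified site. It took up 0.747% ± 0.246 of the summed FPKM of the control libraries (SD, n = 3). Its lowest control value was 233 times its highest acidified value, and its log2(FPKM + 1) differed by -9.70 ± 0.60 (SE) between the acidified and control sites. Both sites were uneven: the control pools ranged from 4623 to 9014 FPKM, and acidified library 3 stood above the other acidified libraries.

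The second member, Sample_MLA_c31756.graph_c0_seq1, is also the single listed form of a component from the control-site assembly. Its values were 1883, 1242 and 2505 FPKM in control libraries 1, 2 and 3, against 17.0, 169 and 76.8 FPKM in acidified libraries 1, 2 and 3. Its acidified values varied widely, with library 2 highest and library 1 lowest, yet the highest of them was far under the lowest control value, by a ratio of 7.33. It held place 110 among all listed transcripts of the control site and place 722 of the acidified site. Its difference on the log2(FPKM + 1) scale, acidified minus control, was -4.86 ± 0.76 (SE).

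Only 6 members reached 1 FPKM in every acidified library, and all 6 were among the 9 highest at the control site. Besides the 2 above, they were the members ranked 3, 5, 7 and 9. The member ranked 3 was at 538, 353 and 448 FPKM in control libraries 1, 2 and 3 and at 99.1, 87.5 and 80.5 FPKM in the acidified ones, which put it at places 418 and 718 among all listed transcripts of the 2 sites. The member ranked 5 differed least between control pools among the 12 highest, at 206, 225 and 224 FPKM in the control and 9.44, 9.50 and 11.9 FPKM in the acidified libraries. Its control mean was 21.2 times its acidified mean. The member ranked 7 was at 66.0, 61.5 and 69.4 FPKM in the control and 18.1, 13.8 and 8.46 FPKM in the acidified libraries, the narrowest gap among the 12 highest members, with a ratio of 3.40 between the lowest control and the highest acidified value. The member ranked 9 was at 40.2, 31.1 and 29.2 FPKM against 4.95, 3.80 and 4.49 FPKM. In these 4 members the pools of a site differed little beside the gap between the sites.

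Other abundant members were close to 0 at the acidified site. The member ranked 4 had 222, 530 and 464 FPKM in control libraries 1, 2 and 3, against 1.65, 0 and 1.29 FPKM in the acidified ones. The member ranked 6 had 30.1, 148 and 146 FPKM in the control pools, against 0.559, 0.751 and 0.266 FPKM in the acidified ones. Both were lowest in control library 1. The member ranked 8 had the opposite order, with 102, 27.9 and 33.1 FPKM in control libraries 1, 2 and 3, and was at 0, 0 and 0.133 FPKM in the acidified libraries. The members ranked 10, 11 and 12 had control means of 13.9 ± 4.46, 13.9 ± 4.73 and 9.97 ± 1.80 FPKM (SD, n = 3 each). None of these 3 exceeded 0.634 FPKM in any acidified library.

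**Figure D2:**
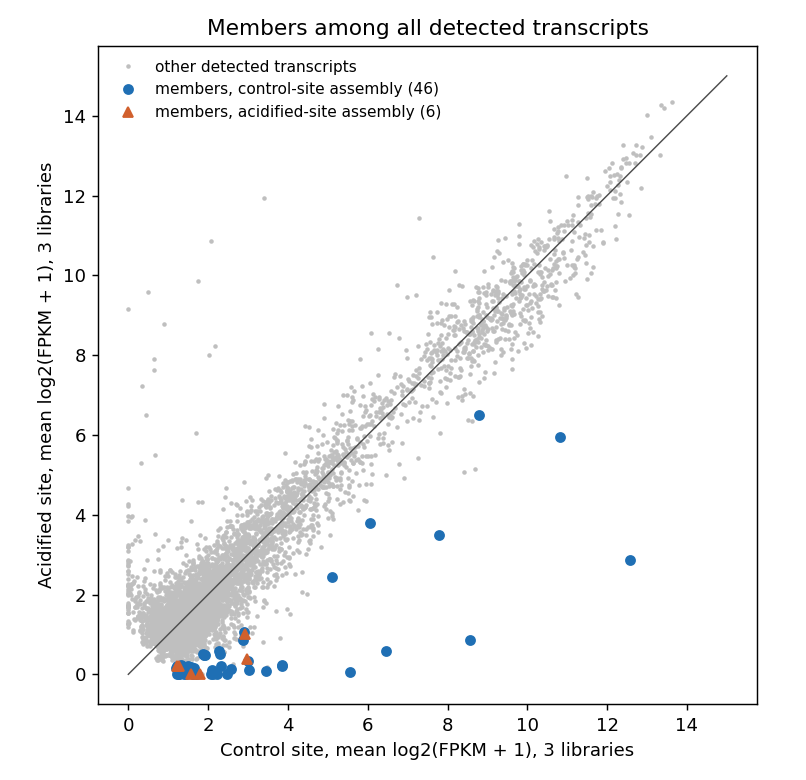
Mean log2(FPKM + 1) of each detected transcript at the control site (horizontal) and at the acidified site (vertical), over 3 libraries each, with members coloured by the assembly they came from and the line of equal levels drawn. The members lie under the line by construction; 41 of the 52 have a control mean under 10 FPKM, and the 6 from the acidified-site assembly are all among these.

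Values of 0 were frequent at the acidified site. Of the 156 values of the members in the acidified libraries, 78 were 0, 5 lay above 0 and under 0.1 FPKM, 47 were from 0.1 to under 1 FPKM and 26 were 1 FPKM or more. The zeros were spread evenly over the libraries, with 26 members at 0 in acidified library 1, 25 in library 2 and 27 in library 3. All 3 acidified libraries were at 0 in 15 members, 2 of them in 12 members, 1 in 9 members and none in 16 members. The 15 members at 0 throughout were low at the control site too, with control means from 1.35 to 5.13 FPKM and a median of 2.14 FPKM. Among all detected transcripts 16 (0.296%) were at 0 in all 3 acidified libraries. Such a transcript is detected only at 1 FPKM or more in all 3 control libraries, so it meets the 3-fold rule automatically. The remaining transcript was removed by the limit on component size, so the overlap with the members is set by the rule.

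The 3 highest of the 15 were the members ranked 19, 25 and 27. The member ranked 19 was at 8.98, 2.67 and 3.73 FPKM in control libraries 1, 2 and 3. The member ranked 25 was at 1.06, 6.84 and 4.17 FPKM, so control library 1 was barely above the minimum of the rule. The member ranked 27 was at 2.97, 2.49 and 4.45 FPKM. The order of the control pools differed among the 3, with library 1 highest in the first, library 2 in the next and library 3 in the last. No fold is given for members at 0 in every acidified library. For the 37 others the lowest control value was 3 to 5 times the highest acidified value in 18, 5 to 10 times in 7, 10 to 30 times in 5 and more in 7, with a median of 5.02.

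At the edge of the rule, the 3 members just inside the 3-fold threshold had ratios of 3.06, 3.13 and 3.21. The first was at 2.49, 2.21 and 1.39 FPKM in control libraries 1, 2 and 3, against 0.454, 0 and 0 FPKM in the acidified ones. The next was at 2.08, 2.18 and 3.96 FPKM against 0.664, 0.148 and 0.549 FPKM, and the last at 1.49, 1.29 and 1.28 FPKM against 0.081, 0 and 0.398 FPKM. The 3 detected transcripts just outside it had ratios of 2.83, 2.83 and 2.80. The first of these was at 7.69, 2.96 and 3.15 FPKM against 0.605, 0 and 1.05 FPKM, so its control level was higher than that of the members just inside. The others were at 1.64, 1.33 and 1.42 FPKM against 0, 0 and 0.469 FPKM, and at 3.80, 3.30 and 8.00 FPKM against 0, 0.920 and 1.18 FPKM. The threshold therefore separates transcripts with similar values.

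The members did not share one order of the control pools. Control library 1 was the highest of the 3 in 20 members, library 2 in 16 and library 3 in 16, which is 38.5%, 30.8% and 30.8%, beside 35.9%, 31.3% and 32.8% of all detected transcripts. The highest control value was 1.72 times the lowest in the median member, from 1.05 to 6.42 times. It was at least 2 times the lowest in 18 members (34.6%), against 25.6% of the 3758 detected transcripts with at least 1 FPKM in every control library. Control library 1 was at most 0.5 times both other control libraries in 5 members and at least 2 times both in 3, against 4.02% and 2.16% of those 3758 transcripts. For control library 2 these counts were 1 and 2 members, against 1.70% and 1.78%, and for control library 3 they were 1 and 0 members, against 1.20% and 1.28%. The median SD of log2(FPKM + 1) over the control libraries was 0.31 in the members and 0.33 in all detected transcripts. Over the acidified libraries it was 0.17 and 0.34, where many members were at 0 and could not vary. The rule bears on these spreads, since a low value in any control library or a high one in any acidified library removes a transcript.

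Whether a member was low together with the rest of its component was read from FPKM summed over all listed forms. Such a sum leaves out any copy of the gene in the other assembly, which would carry another name. Left out too are transcripts that share only the start of the name, and 2 members had detected ones. In 26 members (50%) the member was the single listed form, against 58.3% of the detected transcripts in components with fewer than 3 detected forms. The other 26 shared their components with 123 further listed forms, of which 58 were at 0 in all 6 libraries, 99 were under 1 FPKM in all 6 and 9 were detected. The component sum was higher in all 3 control libraries than in any acidified one for 45 of the 52 members, 19 of them with several listed forms, against 14.4% of the 4774 components with a detected transcript. The lowest control sum was at least 3 times the highest acidified sum for 38 members, 12 of them with several listed forms, against 0.817% of those components. For a member that is the single form, the sum is the member itself. In many components with several listed forms the others were at or near 0, so the sum there is nearly the member too. These counts are therefore largely set by the choice and are no further evidence. In the 7 remaining members, ranked 21, 31, 32, 37, 47, 49 and 50, the component sums of the sites overlapped while the member itself did not.

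A second detected form was present in 9 members (17.3%, against 12.9% of the detected transcripts in components with fewer than 3 detected forms). In the component of the member ranked 4, the other form was higher in every acidified than in any control library. The member made up 48.3%, 90.0% and 93.7% of the component's FPKM in control libraries 1, 2 and 3 and 0.544%, 0% and 0.463% in acidified libraries 1, 2 and 3. Control library 1, where the member was lowest, was thus the control pool with the most even mix of the 2 forms. The member ranked 6 behaved otherwise: its other detected form was also lower at the acidified site, at 1.23, 1.65 and 1.99 FPKM in the control pools, against 0.501, 0.296 and 0 FPKM in the acidified ones, and the component as a whole went from 110 ± 67.8 to 0.966 ± 0.536 FPKM (SD, n = 3 each). In the component of the member ranked 9 the other form was at 29.3, 13.7 and 9.46 FPKM in control libraries 1, 2 and 3, against 0.047, 1.00 and 10.2 FPKM in the acidified ones. These overlapped between the sites because acidified library 3 stood at the level of control library 3.

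The next members of this kind were lower in level. In the component of the member ranked 21, the member had 2.57, 7.12 and 3.31 FPKM in the control pools, against 0.512, 0 and 0.009 FPKM in the acidified ones, while the other form had 1.72, 1.07 and 2.16 FPKM against 1.26, 3.27 and 5.99 FPKM. In that of the member ranked 31, the member had 3.87, 2.76 and 1.34 FPKM in the control pools and was at 0 in the acidified ones, while the other form had 0.799, 1.03 and 0.322 FPKM against 0, 2.88 and 1.59 FPKM. The other form overlapped between the sites in both. In none of the 9 components did the second form pass limma's test across all detected transcripts (Benjamini-Hochberg adjusted p of at least 0.05), which does not show that its level was the same. At ranks 48 and 49 the member was the minor form: it held 24.4% ± 3.97 and 3.26% ± 0.531 of the component's FPKM at the control site (SD, n = 3 each). There the major form was at 4.33 ± 0.425 and 4.10 ± 0.464 FPKM for rank 48, and at 39.6 ± 3.47 and 38.9 ± 7.36 FPKM for rank 49, at the control and acidified sites respectively (SD, n = 3 each). Fragments that fit several forms of a component are divided between them by an estimate, so the split between such forms is less certain than their sum.

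**Figure D3:**
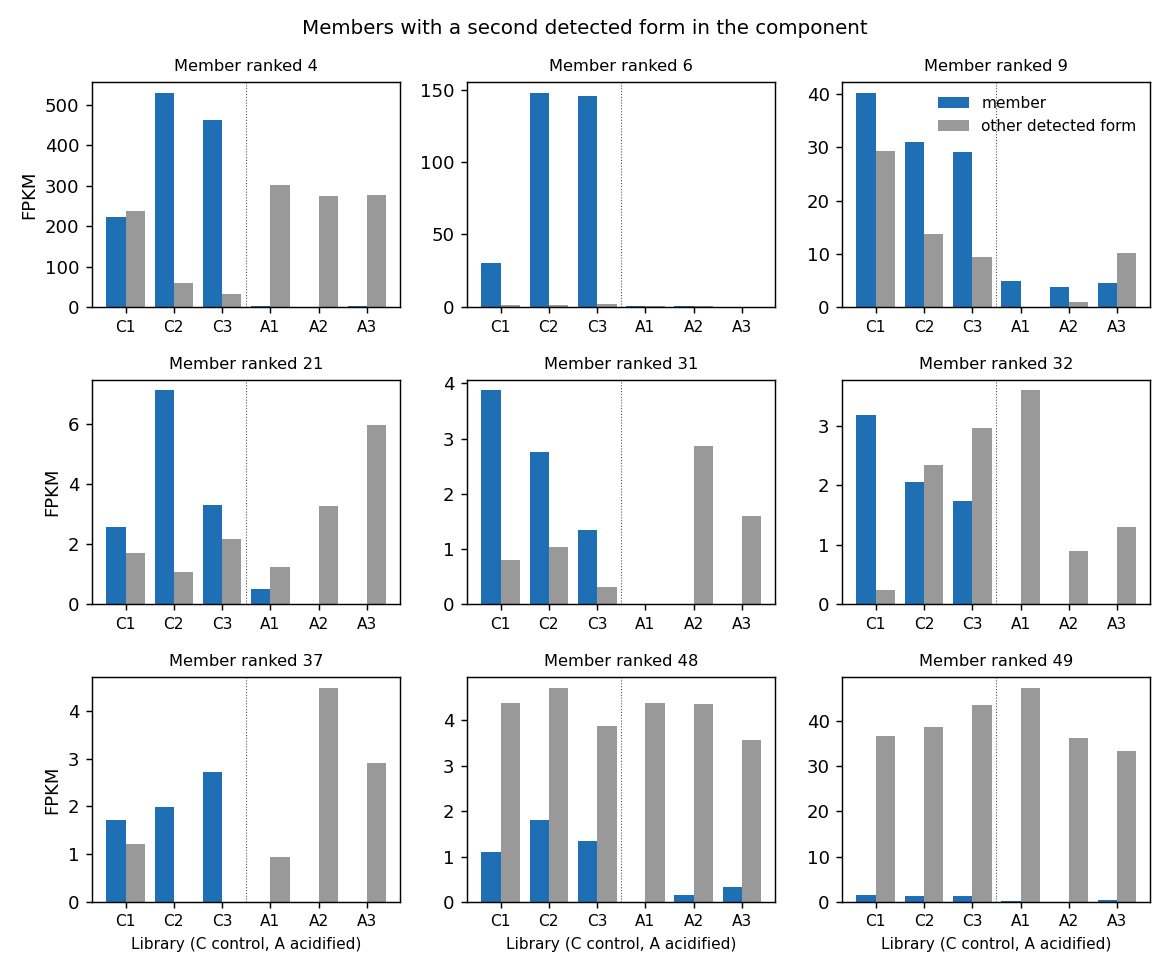
FPKM of the member and of the other detected form of its component in control libraries (C1 to C3) and acidified libraries (A1 to A3), for the 9 members with a second detected form, each panel on its own scale from 0. The other form is higher in all acidified libraries at rank 4, lower at rank 6, and overlaps between the sites in the 7 other panels.

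The transcript names also give the assembly each sequence came from, which the rule did not use. Of the 52 members, 46 (88.5%) came from the control-site assembly and 6 from the acidified-site assembly, where 49.6% of the detected transcripts came from the control-site assembly. Put otherwise, 1.72% of the 2679 detected transcripts from the control-site assembly were members and 0.221% of the 2720 from the acidified-site assembly. The mirrored rule gave the mirrored picture, with 94 of its 104 transcripts (90.4%) from the acidified-site assembly. By the names 1 assembly was built for each site, an assembly tends to hold what was abundant in the RNA it was built from, and a copy of the same gene in the other assembly would carry another name, so these shares are not independent of the levels. The 6 members from the acidified-site assembly were ranked 14, 16, 31, 40, 48 and 49. The highest of them was at 6.07, 5.63 and 9.56 FPKM in control libraries 1, 2 and 3, against 0, 0 and 1.22 FPKM in the acidified ones.

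Members were found over the whole range of control levels. They were 12 of the 2101 detected transcripts with a control mean under 2 FPKM (0.571%), where the minimum of 1 FPKM in every control library leaves little room, 20 of 1359 from 2 to 5 FPKM (1.47%) and 9 of 557 from 5 to 10 FPKM (1.62%). Above that they were 3 of 606 from 10 to 50 FPKM (0.495%), 6 of 381 from 50 to 500 FPKM (1.57%) and 2 of 395 at 500 FPKM or more (0.506%).

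The rule was also applied to 5 libraries at a time, and the value in the library left out was read. With acidified library 1, 2 or 3 left out, 77, 75 and 97 transcripts were picked, and in the left-out library 68.8%, 69.3% and 53.6% of them were also exceeded at least 3 times by the lowest control value. Of all transcripts detected in the same 5 libraries, 7.42%, 7.35% and 6.28% met that condition. With a control library left out and detection asked in 2 of the other 5 libraries, 111, 86 and 90 transcripts were picked without library 1, 2 and 3. In the left-out library 45.9%, 59.3% and 56.7% of them were at 1 FPKM or more and at least 3 times the highest acidified value, against 1.94%, 1.83% and 1.72% of the transcripts detected there. Those meeting the condition numbered 53, 52 and 52 without acidified library 1, 2 and 3, and 51 without each control library. Nearly all were the members themselves, so these shares follow from the members and the length of each list and are no independent support. Without an acidified library, the lowest control value that picked a transcript also served as its reference. The left-out library lay on the same side of the other site's values, with no overlap, in 85.7%, 96.0% and 92.8% of those picked without acidified library 1, 2 and 3. Of all transcripts detected in the same 5 libraries, 31.5%, 32.7% and 34.7% did so. Without control library 1, 2 and 3 it was 72.1%, 84.9% and 85.6% of those picked, against 26.3%, 25.6% and 26.9% of those detected. The members among those picked do so by the rule. Of the 3 control libraries, library 1 had the lowest share among those picked, with 31 of 111 transcripts overlapping. With detection asked in 3 of the other 5 libraries, 20, 16 and 19 transcripts were picked without control library 1, 2 and 3. The shares were then 95%, 100% and 94.7%, against 27.9%, 25.8% and 27.7% of those detected, so that order rests on the detection rule. These are descriptions of 3 pools per site, and the thresholds of detection and of 1 FPKM act on them.

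**Figure D4:**
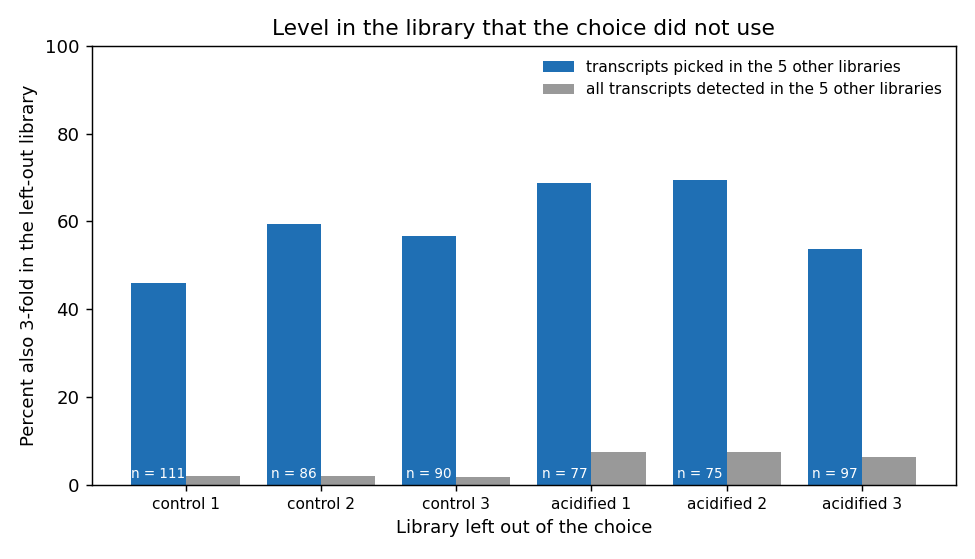
Percent of transcripts that also met the 3-fold criterion in the library left out (named under each pair of bars), for transcripts picked by the rule in the 5 other libraries (n in the bar) and for all transcripts detected in those 5. Detection was asked in 3 libraries where an acidified library was left out and in 2 where a control library was left out. The picked transcripts reach 45.9% to 69.3%, and all detected transcripts 1.72% to 7.42%. The picked transcripts that met the criterion were nearly all members, so their bars follow from the length of each list.

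In the fit across all 5399 detected transcripts, 45 of the 52 members were called lower at the acidified site (limma, Benjamini-Hochberg adjusted p under 0.05), beside 3.56% of all detected transcripts. Since the rule used the same contrast, nothing is read from that count. The median difference between the sites, acidified minus control on the log2(FPKM + 1) scale, was -1.80 over the members, from -9.70 to -1.01, and 0.02 over all detected transcripts. This scale understates the change of low transcripts. The 7 members that were not called had control means from 1.29 to 2.15 FPKM. Without control library 2 the count was 25, and without control library 3 or acidified library 2 it was 29. Without variance trend and robust fitting it was 51, so which members are not called depends on the fit. The members made up 23.4% of all transcripts called lower, and the 147 others missed at least 1 criterion of the rule.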

How the data were processed

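RNA-seq was made from 6 libraries, 3 per site. The authors deposited FPKM in 2 tables, 1 per site, with the same 67131 transcripts. Bowtie2 and RSEM 1.1.21 are the tools named, per the submitters' processing notes. The assembler, the filters and any rescaling are not given in the sources at hand. All values under 10 FPKM were multiples of 1 step per library within 0.0006 FPKM, as values rounded to 0.01 and then multiplied by a factor per library would be. Reads were not recovered and depth is unknown.

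Libraries were grouped by the location in their labels. The tables were joined by identifier and tested with limma 3.58.1 in R 4.3.3 on log2(FPKM + 1) for transcripts at 1 FPKM or more in at least 3 libraries, with variance trend and robust fitting, two-sided, adjusted by the Benjamini-Hochberg method over all 5399. The fit was tested on simulated data with normal noise on the log2(FPKM + 1) scale and no floor at 0. Of the members' 156 acidified values 78 were 0, so that test does not speak for them. P-values set the difference between the sites against the spread between pools of 3 thalli, which limma moderates across transcripts. Each site is 1 location, so they do not extend to other locations.

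The members and lists were chosen with earlier results of these data known. Named by identifier are the 2 members highest at the control site; ranks 3 to 12, the 3 highest members at 0 in the acidified libraries, the 5 highest with a second detected form, and the 3 transcripts on each side of the threshold are given by rank or value. Ranks 48 and 49, with the components that overlapped, were singled out after their values were seen. Alternatives were other pseudocounts, filters, scalings, thresholds, a replicate block and leaving out each library.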

Additional observations from a re-analysis of the deposited data

How the results depend on the processing

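The number of members followed the thresholds: a 2-fold or 5-fold gap gave 103 or 34, and a minimum of 0.5 or 5 FPKM gave 105 or 18. Leaving out 1 library gave 16 to 111 members (97 without acidified library 3). With a control library left out, a transcript found only at the control site fails detection in 3 of 5 libraries, which left 20, 16 and 19; detection in 2 of 5, chosen after seeing the data, gave 111, 86 and 90. Under the 4 scalings, of which removal of the per-library factor was chosen after seeing the data, there were 51 to 58 members. The share from the control-site assembly was 73.7% to 87.5% without single libraries and 81.9% to 94.1% under the thresholds and scalings. The 45 members called lower became 28 with a pseudocount of 0.1 and 25 to 36 without single libraries (25 without control library 2, 29 without control library 3 or acidified library 2). They became 51 without variance trend and robust fitting. The members' median log2 difference was -4.28 and -0.70 with pseudocounts of 0.1 and 5, which set how far low values count. Over all detected transcripts, 192 were called lower; a pseudocount of 0.1 gave 126, no filter 26, and leaving out 1 library 57 to 175. The member ranked 2 was not called without control library 1, 2 or 3 (log2 differences -4.83, -5.13 and -4.62). Between libraries that share a number, deviations from the site mean had correlations of -0.12, 0.02 and -0.12, beside -0.08 to 0.17 between other numbers. With 3 libraries per site, such values cannot decide whether the libraries were paired. A replicate block gave 101 lower transcripts, 36 of them members. Both members named by identifier were lower at the acidified site in all 14 alternatives run for them. The rule sets that direction, so it is no sign of stability. Leaving out 1 library was the one alternative run for the shares of summed FPKM. It gave 1.01% to 1.23% at the control site and 0.0219% to 0.0304% at the acidified site. With 3 libraries per site, leaving 1 out cannot move a mean by 1 SD, so this does not test stability. Member components lower as a whole numbered 45 to 47 without single libraries and 38 with a 3-fold gap in the sums. Leaving out a library can only keep or raise that count, so its range is no sign of stability. The cause of the other shifts was not tested.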
